A study of Arabidopsis thaliana with 6 samples.

Results

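Most of the 10 genes described here encode proteins of the PYK10 complex of Arabidopsis thaliana. The other 2, NAI1 and NAI2, encode proteins on which the organelle that stores PYK10 depends. The 10 are the beta-glucosidases BGLU21, BGLU22 and BGLU23 (PYK10), the GDSL lipase-like proteins GLL22 and GLL25, the jacalin-related lectins JAL30, JAL33 and JAL34, and NAI1 and NAI2. All 10 were found by gene ID among the 32948 genes of the deposited table. They were picked by name with their treated and control values already known, so their differences between treatments are given as a description and carry no test. The treated group was wild-type (WT) whole seedlings on MS medium, the usual salt medium for plant culture, with 20 mM yttrium oxide nanoparticles, and the control group was WT seedlings on MS medium alone. Both were sampled at 6 h, with 3 libraries each. Whether replicate libraries stem from independent cultures is not stated in the labels, so the spread and the p-values may reflect technical variation only. Recovered read totals were 19314683 to 22089042 in treated libraries and 19635539 to 23374306 in control libraries. Levels are FPKM, fragments scaled to gene length and sequencing depth. Changes are differences of log2(FPKM + 1), the treated mean minus the control mean, with the standard error (SE) of the limma model. In bulk RNA from whole seedlings, fewer cells of a type and less RNA per cell cannot be told apart.

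ER bodies are rod-shaped swellings of the endoplasmic reticulum (ER) found in Brassicaceae, in Arabidopsis mainly in the epidermis of young seedlings and in roots. They store beta-glucosidases behind a membrane, away from the glucosides those enzymes cut. PYK10, the main beta-glucosidase of root ER bodies, acts on indole glucosinolates and on the coumarin glucoside scopolin. When tissue is broken, the enzyme meets its substrates and gathers into large complexes with jacalin-related lectins and GDSL lipase-like proteins, a system counted among the chemical defences of the plant. NAI1, a basic helix-loop-helix (bHLH) transcription factor, is needed for expression of PYK10 and for the formation of ER bodies in seedlings. NAI2 is an ER body protein without which these bodies do not form.

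Because NAI1 belongs to the bHLH family, whose members bind E-boxes, the 250 bases before the annotated gene start were searched for the E-box CANNTG and for the G-box CACGTG, which is 1 form of E-box. Both motifs read the same on either strand. The upstream windows of 4 genes are shown, those 3 of the 10 that held an E-box and that of BGLU23, the most abundant of the 10. Sequences are from RefSeq, build TAIR10.1, written 5′ to 3′ on the strand of the gene, with E-boxes in capitals. NAI1 lies on chr2:9684312-9684561 (+), NAI2 on chr3:5402654-5402903 (−), JAL33 on chr3:5588042-5588291 (+) and BGLU23 on chr3:2843782-2844031 (−).
NAI1: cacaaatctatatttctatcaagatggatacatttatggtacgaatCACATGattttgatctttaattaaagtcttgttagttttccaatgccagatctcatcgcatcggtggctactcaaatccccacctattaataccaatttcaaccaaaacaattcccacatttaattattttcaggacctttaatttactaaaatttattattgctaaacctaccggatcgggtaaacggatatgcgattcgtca
NAI2: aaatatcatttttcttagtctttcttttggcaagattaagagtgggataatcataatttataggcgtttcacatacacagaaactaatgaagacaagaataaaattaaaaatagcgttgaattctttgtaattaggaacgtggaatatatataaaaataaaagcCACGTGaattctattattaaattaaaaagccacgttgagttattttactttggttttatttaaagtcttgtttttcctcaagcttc
JAL33: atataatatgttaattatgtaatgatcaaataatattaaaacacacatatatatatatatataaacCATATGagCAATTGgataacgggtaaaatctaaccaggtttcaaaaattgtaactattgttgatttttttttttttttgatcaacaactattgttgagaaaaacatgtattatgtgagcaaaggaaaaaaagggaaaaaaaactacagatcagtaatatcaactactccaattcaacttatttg
BGLU23: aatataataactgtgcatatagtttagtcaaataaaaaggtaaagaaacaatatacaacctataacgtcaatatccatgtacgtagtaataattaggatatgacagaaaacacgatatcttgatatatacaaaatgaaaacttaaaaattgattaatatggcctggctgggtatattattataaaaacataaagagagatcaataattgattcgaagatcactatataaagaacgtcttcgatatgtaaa
The E-box of NAI1 began 204 bases before the gene start. The G-box of NAI2 began 86 bases before the gene start and was the only G-box among the 10 genes. JAL33 held 2 E-boxes and the other 7 genes held none in this window. Across 27419 gene promoters of the same length, 6.5% held a G-box and 55.3% held an E-box. Of 13 other genes of the ER body system, 10 held an E-box and 1, BGLU20, held a G-box in this window. A match of letters is a description of the sequence and not a binding site.

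All 10 genes were lower in the treated seedlings, and for none of them did the treated and control libraries overlap. Treated means were 4.11% (GLL22) to 45.8% (GLL25) of the control means, with a median of 26.2%. The median log2 change of the 10 was -1.90, with a range of -4.44 to -1.10, beside a median of 0.00 over the 18614 genes tested. Of those genes, 16.7% had treated libraries that all lay below the control libraries. At a limma adjusted p under 0.05, 6.41% of tested genes were lower and 8.07% were higher, 14.5% in all, while edgeR called 16.0% and DESeq2 19.5% in either direction. A log2 change below -1, which all 10 had, was seen in 3.15% of tested genes. All 10 passed the filter on low values, and 9 had at least 1 FPKM in every library, the exception being BGLU21. The authors' deposited table contains all 10 as lower in treated seedlings. Its genes have an absolute log2 fold change of at least 1 and an authors' adjusted p of at most 0.0499. It lists 1057 genes as lower, 3.21% of the 32948 genes with FPKM values. Those 32948 include genes too low to be tested here.

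**Figure D1:**
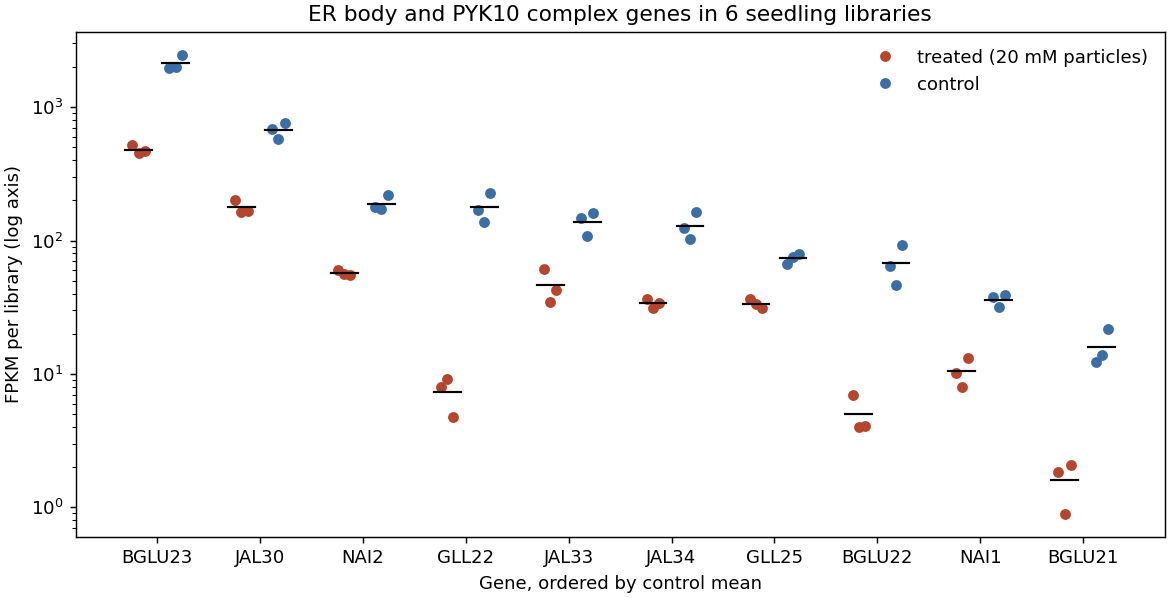
FPKM (log axis) of each of the 10 genes in the 3 treated and 3 control libraries, with the group mean as a horizontal line. Every treated point lies below every control point of the same gene, with the widest gap for GLL22 and the narrowest for GLL25 and JAL33.

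The genes span a wide range of levels. BGLU23 averaged 479 ± 33.5 FPKM in treated and 2135 ± 276 FPKM in control seedlings (SD, n = 3 each), while BGLU21 averaged 1.61 ± 0.632 and 16.0 ± 4.98 FPKM. In control libraries BGLU23 was among the most abundant transcripts of the seedling. Ranked by FPKM it stood at 113, 141 and 125 among all genes in treated libraries 1, 2 and 3, against 9, 12 and 4 in control libraries 1, 2 and 3. JAL30, the next most abundant, stood at 473, 593 and 553 in treated and at 72, 106 and 57 in control libraries. Together the 10 genes held 0.155 ± 0.0137% of all reads in treated and 0.664 ± 0.0913% in control seedlings (SD, n = 3 each).

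**Figure D2:**
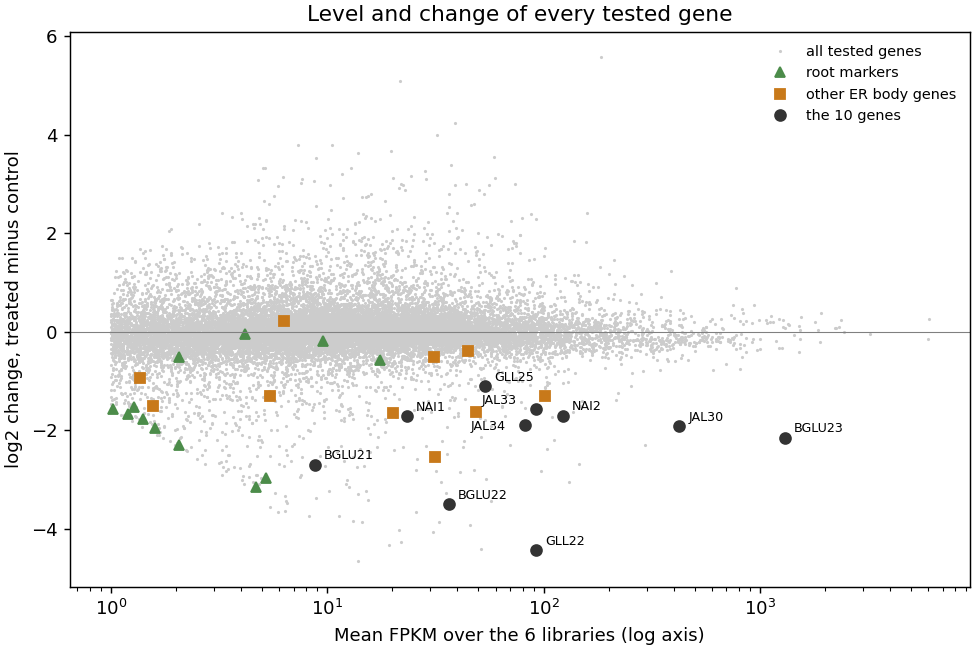
Log2 change (treated minus control, vertical) against mean FPKM over the 6 libraries (horizontal, log axis) for all 18614 tested genes, with the 10 genes in black, other ER body genes in orange and root markers in green. The 10 genes lie below the bulk of the points, 0.913% of tested genes had a change below their median of -1.90, and GLL22 at -4.44 sits near the lower edge.

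Among the control libraries, control 3 was highest for all 10 genes, and control 2 was lowest for 7 of them. Of the treated libraries, treated 1 was highest for 7 and treated 2 lowest for 7. Averaged over the 10 genes, the centred log2 level was -0.96, -1.27 and -1.17 in treated libraries 1, 2 and 3, against 1.08, 0.91 and 1.41 in control libraries 1, 2 and 3. On the first principal component of all tested genes, which held 68.4% of the variance, treated 2 lay closest to the controls, with scores of 48.2, 25.1 and 40.7 in treated libraries 1, 2 and 3 against -38.2, -43.7 and -32.2 in control libraries 1, 2 and 3. The 10 genes did not follow that order, since treated 2 held their lowest mean level.

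NAI1 (AT2G22770, chromosome 2, 9684562 to 9686613, plus strand), the transcription factor, had 10.2, 7.97 and 13.2 FPKM in treated libraries 1, 2 and 3. In control libraries 1, 2 and 3 it had 37.6, 31.6 and 39.0 FPKM. No treated library came near a control, and the lowest control was 2.40 times the highest treated library. Its mean was 10.5 ± 2.62 FPKM in treated and 36.1 ± 3.94 FPKM in control seedlings (SD, n = 3 each), a log2 change of -1.71 (SE 0.173). Its nearest relatives in the bHLH family, BHLH18, BHLH19 and BHLH25, averaged 0.144, 0.187 and 0.672 FPKM in treated seedlings against 0.291, 0.266 and 1.14 FPKM in controls, under the level needed for a test.

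NAI2 (AT3G15950, chromosome 3, 5397541 to 5402653, minus strand), the ER body protein, had 60.0, 56.3 and 55.0 FPKM in treated libraries 1, 2 and 3, against 177, 171 and 218 FPKM in control libraries 1, 2 and 3. The treated libraries differed little from each other, and all stood far under the controls. The change was -1.70 (SE 0.122), close to that of NAI1. TSA1, a homolog of NAI2 linked to the ER bodies that form in leaves after wounding or jasmonate, did not pass the threshold. TSA1 had 7.44, 4.90 and 8.24 FPKM in treated libraries 1, 2 and 3, against 5.11, 4.996 and 7.05 FPKM in control libraries 1, 2 and 3, and the groups overlapped (log2 change 0.21, limma adjusted p = 0.507). The coding bases of NAI2 and TSA1 were 68.3% identical. Within each library, TSA1 stood at 0.120 ± 0.0315 of the NAI2 level in treated and at 0.0301 ± 0.00190 of it in control seedlings (SD, n = 3 each). The membrane proteins of the ER body were lower along with NAI2. MEB1 had 10.1, 9.15 and 8.49 FPKM in treated libraries 1, 2 and 3, against 27.5, 30.7 and 35.6 FPKM in control libraries 1, 2 and 3, and fell by 1.65 (SE 0.125, limma adjusted p = 9.38e-05). MEB2 had 2.27, 2.91 and 3.09 FPKM in treated and 8.70, 7.23 and 8.63 FPKM in control libraries, and fell by 1.29 (SE 0.141, limma adjusted p = 0.000648).

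The beta-glucosidases of the set are close relatives, with the same coding length of 1575 bases each. BGLU21 and BGLU22 share 93.3% of aligned coding bases, and BGLU23 shares 83.4% with BGLU21 and 83.1% with BGLU22. Of the 50-base runs in each transcript, 5.2% of those of BGLU21, 4.9% of those of BGLU22 and 3.8% of those of BGLU23 also occurred in a transcript of another gene on either strand. For BGLU21 and BGLU22 the gene sharing most was the other of the pair, and for BGLU23 it was AT3G09250. ER body beta-glucosidases end in an ER retention signal. The last 30 coding bases before the stop codon are shown for these enzymes and for their relatives BGLU18, BGLU19 and BGLU20, to compare their bases. The last 4 codons, the place of the signal, are in capitals (RefSeq, TAIR10.1, coding strand).
BGLU21: cgtccatccgcactcaagAGGGATGAGCTT
BGLU22: cgtccatccgcgctcaagAAGGATGAGCTT
BGLU23: cgtccatccgcgctcaagAAGGATGAGCTT
BGLU18: tttccaacctccaagctgAGGGAAGAACTC
BGLU19: tctaagtcctcaaagctaCACGAGGAGCTC
BGLU20: atcgagcacgagttcgaaCACGATGAGTTG
BGLU22 was identical to BGLU23 over these 30 bases, and BGLU21 differed from BGLU23 at 2 of them. BGLU18, BGLU19 and BGLU20 differed from BGLU23 at 14, 17 and 16 of the 30 bases, 4 of them among the capitals in each case. These are counts of bases, and some of the changes leave the amino acid the same. They do not mean that the relatives lack a retention signal.

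BGLU23 or PYK10 (AT3G09260, chromosome 3, 2840477 to 2843781, minus strand) had 517, 452 and 469 FPKM in treated libraries 1, 2 and 3. In control libraries 1, 2 and 3 it had 1949, 2004 and 2452 FPKM. The lowest control was 3.77 times the highest treated library, and the log2 change was -2.15 (SE 0.119). BGLU23 alone carried 0.0866 ± 0.00622% of all reads in treated and 0.387 ± 0.0464% in control seedlings (SD, n = 3 each). Its share of the summed FPKM of the 10 genes was 56.3 ± 1.21% in treated and 58.8 ± 2.36% in control seedlings, so it dominated the set in both groups.

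BGLU22 (AT1G66280, chromosome 1, 24706512 to 24709996, minus strand) and BGLU21 (AT1G66270, chromosome 1, 24699868 to 24703166, minus strand) lie next to each other and were lower still. BGLU22 had 6.99, 4.01 and 4.09 FPKM in treated libraries 1, 2 and 3, against 64.6, 46.7 and 93.3 FPKM in control libraries 1, 2 and 3, a log2 change of -3.50 (SE 0.281). BGLU21, known from Arabidopsis roots as a scopolin-hydrolysing enzyme, had 1.85, 0.895 and 2.09 FPKM in treated libraries 1, 2 and 3, against 12.4, 14.0 and 21.7 FPKM in control libraries 1, 2 and 3. Those values rest on 80, 39 and 81 recovered reads in treated libraries and 494, 557 and 1002 in control libraries. The pseudocount of 1 FPKM weighs on a gene this low: the log2 change of BGLU21 was -2.70 (SE 0.250) with it and -3.27 with a pseudocount of 0.1. The level of BGLU22 relative to BGLU23 was 0.0104 ± 0.00273 in treated and 0.0315 ± 0.00751 in control seedlings (SD, n = 3 each), without overlap. That of BGLU21 relative to BGLU22 was 0.264, 0.223 and 0.511 in treated libraries 1, 2 and 3 and 0.191, 0.299 and 0.232 in control libraries 1, 2 and 3, and the groups overlapped.

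BGLU18, the main enzyme of the wound-induced ER bodies, differed less between the groups. It had 22.5, 23.4 and 30.3 FPKM in treated libraries 1, 2 and 3, against 32.6, 30.8 and 48.1 FPKM in control libraries 1, 2 and 3. The groups nearly met, and the log2 change of -0.51 stayed short of the threshold (limma adjusted p = 0.110). It did pass in DESeq2 (adjusted p = 0.0342) and with the replicate number as a block (limma adjusted p = 0.0189). BGLU18 stood at 0.0533 ± 0.0106 of the BGLU23 level in treated and at 0.0172 ± 0.00217 of it in control seedlings (SD, n = 3 each). BGLU19 had 0.671, 0.238 and 0.536 FPKM in treated libraries 1, 2 and 3, against 2.03, 0.391 and 4.36 FPKM in control libraries 1, 2 and 3, and was not past the threshold with a change of -0.94 (limma adjusted p = 0.212). Control 2 was far below the other controls for BGLU19, and without that library the limma adjusted p was 0.0169. In DESeq2, BGLU19 was past the threshold with a log2 fold change of -2.24 (adjusted p = 0.00438). Of its 50-base runs, 21.3% also occurred in a transcript of another gene, mostly AT3G21360. BGLU20 was listed at 0 in all 6 libraries.

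GLL22 (AT1G54000, chromosome 1, 20154154 to 20156520, minus strand), a GDSL lipase-like protein of the PYK10 complex, had the lowest treated level relative to control of the 10. It had 7.95, 9.20 and 4.79 FPKM in treated libraries 1, 2 and 3. In control libraries 1, 2 and 3 it had 169.6, 138 and 226 FPKM. The lowest control was 14.98 times the highest treated library. The treated values rest on 299, 348 and 161 recovered reads, against 5884, 4771 and 9075 in the controls. Its log2 change was -4.44 (SE 0.250), and only 1 tested gene had a lower one. GLL22 made up 0.863 ± 0.289% of the summed FPKM of the 10 genes in treated and 4.85 ± 0.576% in control seedlings (SD, n = 3 each).

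GLL23, the closest relative of GLL22 with 91.2% identical coding bases, was lower by much less. It had 71.9, 47.4 and 56.5 FPKM in treated libraries 1, 2 and 3, against 131, 134 and 171 FPKM in control libraries 1, 2 and 3. It fell by 1.31 (SE 0.173, limma adjusted p = 0.00183). GLL22 was far below the GLL23 level in treated seedlings and close to it in controls. The level of GLL22 relative to GLL23 was 0.111, 0.194 and 0.0848 in treated libraries 1, 2 and 3, against 1.30, 1.02 and 1.32 in control libraries 1, 2 and 3. Of the 50-base runs of their transcripts, 3.0% in GLL22 and 3.4% in GLL23 also occurred in a transcript of another gene.

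GLL25 (AT1G54030, chromosome 1, 20167597 to 20169684, plus strand), also called MVP1 or ERMO3 and needed for normal ER shape, changed least of the 10. It had 36.4, 33.2 and 31.5 FPKM in treated libraries 1, 2 and 3, against 66.9, 74.7 and 79.0 FPKM in control libraries 1, 2 and 3. Its log2 change was -1.10 (SE 0.112). Here too no treated library reached the lowest control, which was 1.84 times the highest treated library. GLL25 is the most distant of the GLL proteins compared, with 52.6% of coding bases identical to GLL22. The remaining GLL gene, AT1G54020, averaged 0.261 FPKM in treated and 0.272 FPKM in control seedlings and was not tested.

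JAL30 (AT3G16420, chromosome 3, 5579290 to 5581032, plus strand), also called PBP1 for PYK10-binding protein, was the most abundant lectin of the set. It had 202, 164 and 165 FPKM in treated libraries 1, 2 and 3. In control libraries 1, 2 and 3 it had 680.2, 572 and 763 FPKM. The log2 change was -1.91 (SE 0.139). Its share of the summed FPKM of the 10 genes was 20.8 ± 0.701% in treated and 18.5 ± 1.203% in control seedlings (SD, n = 3 each).

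JAL33 (AT3G16450, chromosome 3, 5588292 to 5590085, plus strand), another jacalin-related lectin of the complex, had 61.5, 34.8 and 42.8 FPKM in treated libraries 1, 2 and 3, against 147, 108 and 161 FPKM in control libraries 1, 2 and 3. Treated 1 stood apart from the other treated libraries, and the lowest control was 1.75 times that value. The log2 change was -1.58 (SE 0.229). JAL34 (AT3G16460, chromosome 3, 5592491 to 5595912, plus strand) had 36.6, 31.1 and 34.0 FPKM in treated libraries 1, 2 and 3, against 123, 102 and 163 FPKM in control libraries 1, 2 and 3. Its treated libraries were close together, and the log2 change was -1.88 (SE 0.171). JAL34 overlaps JAL35 on the other strand over 18.4% of its span, and the use of strand in counting is not given in the sources used here, so its level is less certain than that of the other lectins.

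Among the lectin genes outside the set, JAL31, JAL22 and JAL32 fell, and JAL35 did not pass the limma threshold. JAL31 (PBP2), with 88.6% of coding bases identical to JAL30, had 9.17, 6.94 and 9.40 FPKM in treated libraries 1, 2 and 3, against 55.2, 43.8 and 64.0 FPKM in control libraries 1, 2 and 3. It fell by 2.53 (SE 0.166, limma adjusted p = 4.27e-05). JAL22 had 24.5, 18.7 and 26.9 FPKM in treated and 77.8, 68.5 and 75.0 FPKM in control libraries, and fell by 1.63 (SE 0.144, limma adjusted p = 0.000208). JAL32 was scarce, with 0.530, 0.211 and 0.197 FPKM in treated and 3.48, 3.30 and 1.65 FPKM in control libraries, and fell by 1.51 (SE 0.227, limma adjusted p = 0.00348). It passed the filter on low values only through its control level. JAL35 had 41.5, 33.3 and 40.8 FPKM in treated libraries 1, 2 and 3, against 48.0, 49.2 and 55.5 FPKM in control libraries 1, 2 and 3, and its change of -0.40 was not past the threshold (limma adjusted p = 0.0670, DESeq2 adjusted p = 0.0264). JAL35 was above JAL34 in every treated library and below it in every control library, with JAL35 over JAL34 at 1.13, 1.07 and 1.199 in treated libraries 1, 2 and 3 and 0.389, 0.483 and 0.339 in control libraries 1, 2 and 3. This ratio is uncertain, since 21.9% of the 50-base runs of JAL34 and 27.5% of those of JAL35 also occurred in a transcript of another gene, mostly each other, and reads of the overlap may be counted for either gene. JAL23 averaged 0.886 FPKM in treated and 0.685 FPKM in control seedlings and was not tested.

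**Figure D3:**
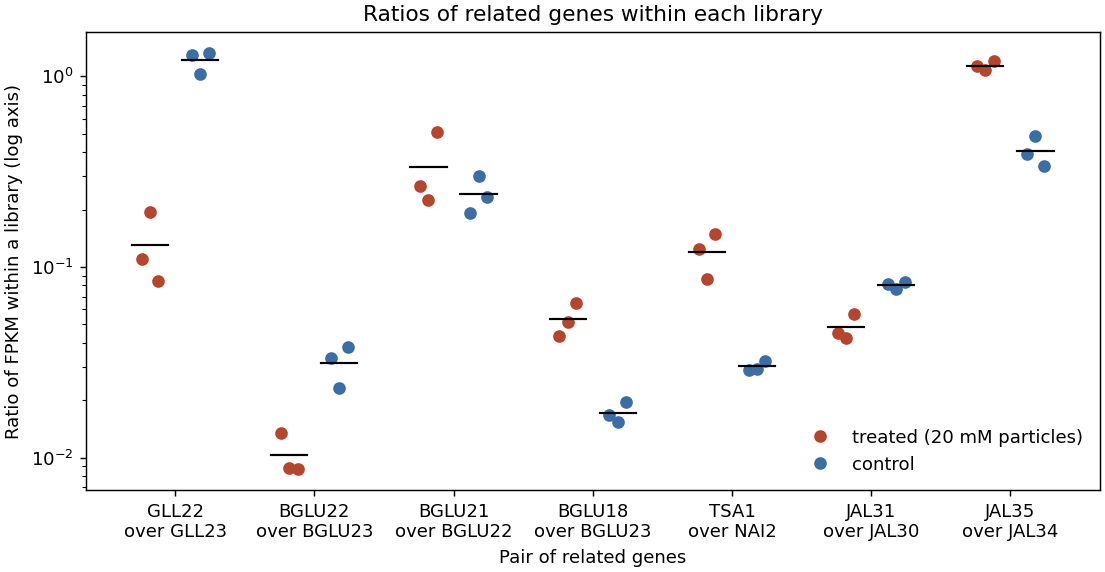
Level of 1 gene relative to a related gene within the same library (log axis), for 7 pairs of ER body genes, in the 3 treated and 3 control libraries, with group means as lines. GLL22 over GLL23 was 0.0848 to 0.194 in treated and 1.02 to 1.32 in control libraries, while BGLU21 over BGLU22 overlapped between the groups.

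Counted over the 13 other genes of the ER body system, 10 were tested, 6 fell, 0 rose and 4 did not pass the limma threshold. JAL32, which fell, and BGLU19, which did not pass, were tested only through their control levels. At an unadjusted p under 0.05 limma had 8 lower and 0 higher. With adjustment, edgeR had 6 lower and 0 higher, and DESeq2 had 9 lower and 0 higher. Their median log2 change was -1.30, and their summed level was 148 to 192 FPKM in treated libraries and 374 to 472 FPKM in control libraries. The 4 that did not pass were BGLU18, BGLU19, TSA1 and JAL35. Of these, BGLU18, BGLU19 and JAL35 were lower past the threshold in DESeq2. BGLU18 and TSA1 are the enzyme and the structural protein associated with wound-induced ER bodies. A difference between these genes and the rest of the list was not tested. Over all tested genes, limma had 6.41% lower and 8.07% higher. This list and the lists below were chosen with earlier results of these data known. Their p-values and counts are therefore a description and no independent test.

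**Figure D4:**
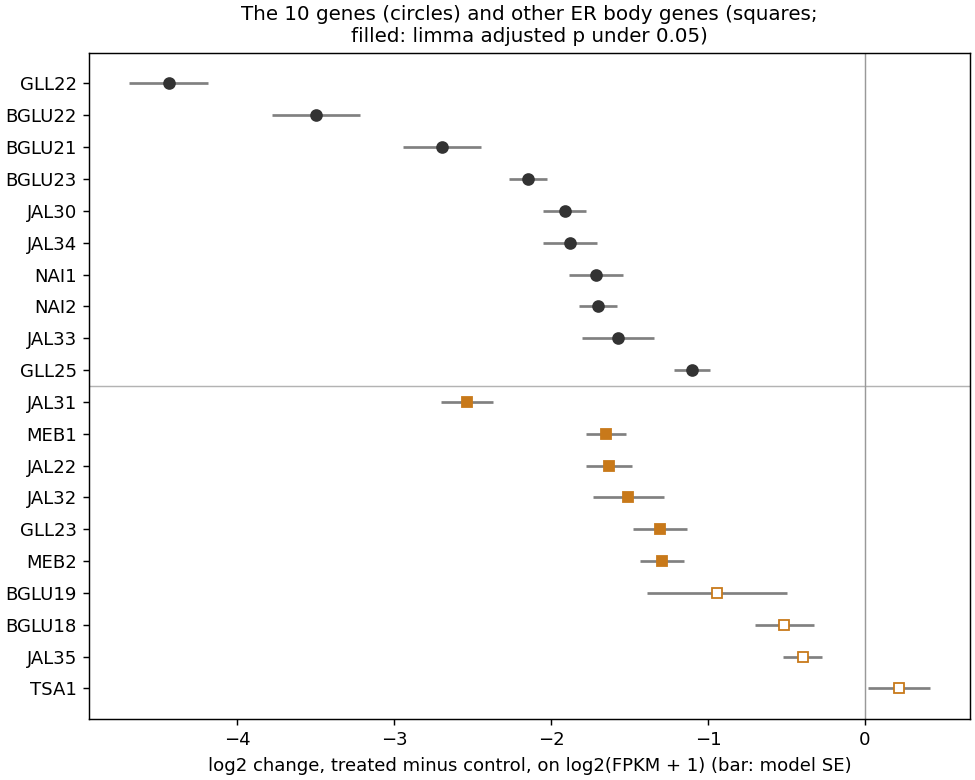
Log2 change (treated minus control, log2(FPKM + 1) scale) of the 10 genes and of the tested genes of the other ER body list, with the SE as error bars and open squares for genes not past the limma threshold. The 10 genes lie between -4.44 (GLL22) and -1.10 (GLL25), and TSA1 at 0.21 is the only gene plotted above 0.

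Several of the 10 genes sit in clusters of related genes, and the neighbours were compared with them. For reference, 6.41% of all tested genes were lower and 8.07% higher in limma. Within 15 kb of JAL30, JAL33 and JAL34, 6 of 10 other genes were tested and 4 fell: NSP1, NSP4, JAL31 and JAL32. JAL32 passed the filter on low values only through its control level, so for it only a lower level could be called. NSP1, a nitrile-specifier protein that directs glucosinolate breakdown, averaged 76.6 ± 14.9 FPKM in treated and 217 ± 36.4 FPKM in control seedlings (SD, n = 3 each), and fell by 1.496 (limma adjusted p = 0.000825). NSP4 averaged 2.12 ± 0.556 FPKM in treated and 6.87 ± 1.55 FPKM in control seedlings, and fell by 1.34 (limma adjusted p = 0.00281). JAL35 and 1 other gene did not pass.

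Around GLL22 and GLL25, 8 of 16 other genes within 15 kb were tested. The limma shares over all tested genes were 6.41% lower and 8.07% higher. GLL23 and GLIP5 fell and GLIP3 rose, and GLIP5 and GLIP3 encode other GDSL lipases. GLIP5 averaged 3.98 ± 0.434 FPKM in treated and 7.20 ± 1.47 FPKM in control seedlings (change -0.71, limma adjusted p = 0.0223), a call lost without control 1 (0.0941) or control 2 (0.0872). GLIP3 averaged 2.69 ± 0.609 FPKM in treated and 1.02 ± 0.0998 FPKM in control seedlings (change 0.86, limma adjusted p = 0.00929). So the genes beside GLL22 did not all share its direction. Around BGLU21 and BGLU22, 3 of 10 other genes were tested and 0 passed the limma threshold, with changes between -0.38 and 0.15. At an unadjusted p under 0.05 there was 1, and after adjustment edgeR and DESeq2 had 0. GLIP5 was no nearest neighbour and was chosen after their values were seen.

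**Figure D5:**
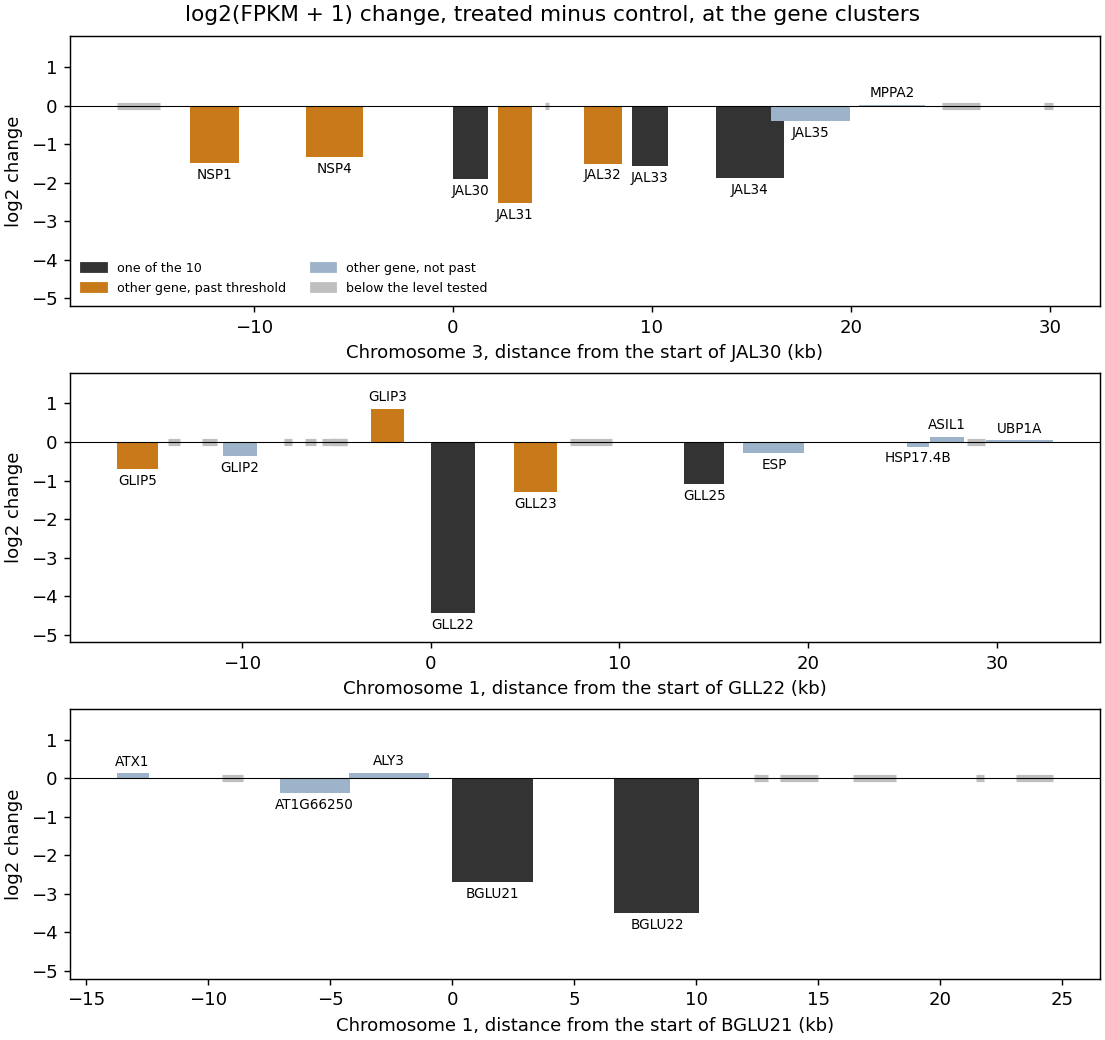
Bars give the log2 change (treated minus control) of tested genes in 3 clusters, at their distance in kb from the start of JAL30, GLL22 or BGLU21, with members in black, other genes past the threshold in orange, those not past it in blue and untested genes in grey. GLIP3 is the only orange bar above 0, and around BGLU21 and BGLU22 the other tested genes lie between -0.38 and 0.15.

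Outside the set, the genes whose profile over the 6 libraries was most like the mean profile of the 10 were found by the root mean square (RMS) difference of centred log2(FPKM + 1) values, over 13406 genes with a mean of at least 5 FPKM. Closest were AT4G02850 (RMS 0.111), AT3G62040 (RMS 0.118), PER16 (AT2G18980, RMS 0.169), JAL31 (RMS 0.170) and AT4G24340 (RMS 0.192). AT4G02850 averaged 5.40 ± 0.359 FPKM in treated and 26.2 ± 4.37 FPKM in control seedlings (SD, n = 3 each). PER16, a class III peroxidase, averaged 2.04 FPKM in treated and 16.6 FPKM in control seedlings. JAL31 is the only one of these from the ER body system. Among the 10 themselves BGLU23 lay nearest to their mean profile (RMS 0.0977) and GLL22 farthest from it (RMS 1.12).

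Indole glucosinolates are among the substrates of PYK10, and the genes that make, regulate and move them went in both directions. Of 18 tested genes, 4 fell, 5 rose and 9 did not pass the limma threshold, with a median change of -0.11. Only 2 fell without control 2, and likewise without control 3. At an unadjusted p under 0.05 limma had 6 lower and 6 higher. With adjustment, edgeR had 6 lower and 5 higher, and DESeq2 had 6 lower and 6 higher. Over all tested genes, limma had 6.41% lower and 8.07% higher. MYB51, a regulator of indole glucosinolate synthesis, averaged 27.1 FPKM in treated and 4.62 FPKM in control seedlings and rose by 2.30 (limma adjusted p = 9.89e-05). MYB122, another such regulator, rose by 1.55 (limma adjusted p = 0.000297), and CYP81F2, which modifies the indole ring, rose by 1.43 (limma adjusted p = 0.00161). IGMT5, a methyltransferase of the pathway, averaged 79.5 FPKM in treated and 131 FPKM in control seedlings and fell by 0.71 (limma adjusted p = 0.00455). CYP81F4 fell by 2.34 (limma adjusted p = 3.34e-05), but 99.6% of its span is overlapped by a gene on the other strand, so reads of the pair may be mixed. CYP79B3, which acts at the entry to the pathway, fell by 0.48 (limma adjusted p = 0.0172), a call lost without control 2 (0.0781) or control 3 (0.0609). GGP1 (0.02, limma adjusted p = 0.916) and SUR1 (-0.17, limma adjusted p = 0.287), of the shared core of the pathway, did not pass.

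Myrosinases cut glucosinolates, and specifier proteins steer the products. Of 10 tested genes outside the 10 members, 4 fell, 2 rose and 4 did not pass the limma threshold, while DESeq2 had 2 lower and 2 higher. In limma, 6.41% of all tested genes were lower and 8.07% higher. Besides NSP1 and NSP4, the root myrosinase TGG5 was lower, at 0.191 FPKM in treated and 2.36 FPKM in control seedlings (change -1.51, limma adjusted p = 0.00312, DESeq2 adjusted p = 0.0910). TGG4 was lower too, at 0.275 FPKM in treated and 2.24 FPKM in control seedlings (change -1.35, limma adjusted p = 0.00812). TGG4 and TGG5 passed the filter on low values only through their control levels, so for them only a lower level could be called. With a minimum mean of 5 FPKM, 1 gene of this list fell. PEN2, a myrosinase of leaf defence, averaged 110.2 ± 11.9 FPKM in treated and 62.0 ± 2.03 FPKM in control seedlings (SD, n = 3 each) and rose by 0.81 (limma adjusted p = 0.00234). NSP5 averaged 126 FPKM in treated and 66.1 FPKM in control seedlings and rose by 0.93 (limma adjusted p = 0.00290). TGG1, the abundant myrosinase of leaves, averaged 607 FPKM in treated and 698 FPKM in control seedlings and did not pass (-0.21, limma adjusted p = 0.416), nor did TGG2 (0.07, limma adjusted p = 0.786).

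Coumarins include scopolin, the other known PYK10 substrate. Of 5 tested genes of coumarin synthesis and release, 2 fell, 0 rose and 3 did not pass in limma, and the counts past the threshold were the same at an unadjusted p under 0.05, in edgeR and in DESeq2. Among all genes tested, 6.41% were lower and 8.07% higher in limma. F6H1, which makes scopoletin precursors, averaged 6.93 ± 1.97 FPKM in treated and 38.0 ± 3.48 FPKM in control seedlings (SD, n = 3 each) and fell by 2.33 (limma adjusted p = 0.000130). ABCG37, a transporter that exports coumarins from roots, averaged 7.25 ± 2.04 FPKM in treated and 26.8 ± 1.23 FPKM in control seedlings and fell by 1.79 (limma adjusted p = 0.000480). CCOAOMT1 (0.04, limma adjusted p = 0.845) and BGLU42 (0.01, limma adjusted p = 0.950) did not pass.

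General folding genes of the ER, chaperones among them, were also listed. Of 17 tested, 1 fell, 1 rose and 15 did not pass the limma threshold, with a median change of -0.18, and DESeq2 had 2 higher. These limma counts lie near the shares of all tested genes, 6.41% lower and 8.07% higher, and do not set the list apart. BIP1 averaged 252 ± 18.1 FPKM in treated and 308 ± 31.5 FPKM in control seedlings (SD, n = 3 each), a change of -0.29 (limma adjusted p = 0.134), and BIP2 had -0.23 (limma adjusted p = 0.283). Calnexin CNX1 averaged 182 ± 15.1 FPKM in treated and 252 ± 24.8 FPKM in control seedlings and fell by 0.46 (limma adjusted p = 0.0318). That call was lost without treated 1 (0.0860), treated 2 (0.0696), control 1 (0.0774), control 2 (0.0688) or control 3 (0.0947). Calreticulin CRT3 averaged 46.3 FPKM in treated and 31.8 FPKM in control seedlings and rose by 0.53 (limma adjusted p = 0.0155), a call lost without control 2 (0.0618) or control 3 (0.0563).

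Jasmonate induces ER bodies in leaves, so genes of its synthesis and response were also listed. Of 10 tested, 1 fell, 1 rose and 8 did not pass the limma threshold. These counts are near the shares of all tested genes, 6.41% lower and 8.07% higher, and do not set the list apart. The count that fell was 2 without treated 2 and 2 with the replicate number as a block, and DESeq2 had 2 higher. VSP1, a storage protein induced by jasmonate, averaged 14.2 ± 2.37 FPKM in treated and 41.2 ± 15.2 FPKM in control seedlings (SD, n = 3 each) and fell by 1.42 (limma adjusted p = 0.0115). AOC1, an enzyme of jasmonate synthesis, averaged 59.6 ± 14.0 FPKM in treated and 18.6 ± 0.502 FPKM in control seedlings and rose by 1.60 (limma adjusted p = 0.000548). AOS (0.18, limma adjusted p = 0.625) and LOX2 (-0.38, limma adjusted p = 0.234) did not pass, and MYC2 was listed at 0 in all 6 libraries. A gene on the other strand overlaps 98.5% of the MYC2 span, so this 0 is not read as a level of its expression.

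Since PYK10 is best known from roots, tissue markers were read beside the 10 genes, and the libraries held markers of both root and shoot. Of 17 root markers, 12 were tested, 9 fell, 0 rose and 3 did not pass the limma threshold, with a median change of -1.62. The counts were also 9 lower and 0 higher at an unadjusted p under 0.05, in edgeR and in DESeq2. Their summed level was 28.6 to 32.0 FPKM in treated and 75.0 to 81.0 FPKM in control libraries. Over all tested genes, 6.41% were lower and 8.07% higher. All root markers that fell except PHO1 averaged under 1 FPKM in treated seedlings. They passed the filter on low values only through their control levels, so for them only a lower level could be called. With a minimum mean of 5 FPKM, 2 root markers fell. PHO1, at 13.9 FPKM in treated and 21.1 FPKM in control seedlings, fell by 0.57 (limma adjusted p = 0.0256). CASP1, of the root endodermis, averaged 0.154 FPKM in treated and 9.27 FPKM in control seedlings and fell by 3.16 (limma adjusted p = 8.08e-06). PRP3, of root hairs, averaged 0.391 FPKM in treated and 10.1 FPKM in control seedlings and fell by 2.97 (limma adjusted p = 2.74e-05), and CASP2 fell by 1.95 (limma adjusted p = 0.000101). CASP5 was too low to be tested, at 0 in all treated libraries and 0.157 FPKM on average in controls, from 4, 1 and 4 recovered reads. The endodermis regulators SCR, at 8.84 FPKM in treated and 10.2 FPKM in control seedlings, and SHR, at 4.08 FPKM in treated and 4.25 FPKM in control seedlings, did not pass (-0.19 and -0.05, limma adjusted p = 0.305 and 0.838). The part of root tissue in the lower levels of the 10 genes was not tested.

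Of 9 tested shoot epidermis and guard cell markers, 0 passed in either direction in limma. At an unadjusted p under 0.05 limma had 2 lower and 0 higher, edgeR had 0 after adjustment and DESeq2 had 1 lower. Their summed level was 258 to 306 FPKM in treated and 274 to 315 FPKM in control libraries. With 6.41% of all tested genes lower and 8.07% higher in limma, counts this low do not set such short lists apart. PDF1 had a change of -0.27 (limma adjusted p = 0.138) and KCS10 of 0.12 (limma adjusted p = 0.580). Of 7 mesophyll markers, 0 fell in limma, at an unadjusted p under 0.05, in edgeR and in DESeq2, and 1 rose, LHCB2.2, at 894 FPKM in treated and 609.8 FPKM in control seedlings (0.55, limma adjusted p = 0.0106). RBCS1A (-0.15, limma adjusted p = 0.340) and CAB1 (0.27, limma adjusted p = 0.216) did not pass.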

How the data were processed

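Total RNA of whole seedlings, extracted with Trizol, was made into Illumina libraries and sequenced, per the protocols in the labels. Per the submitters' processing notes, reads were handled with HISAT2 2.0.5 and build TAIR10, while the counting program, strand setting and filters are not stated. The authors deposited FPKM for 32948 genes in 6 libraries. The authors' deposited comparison table of 2104 genes holds, for each library, a signal equal to reads over a size factor, a log2 fold change (treated over control) and p-values. Multiplied by gene length, the FPKM values of a library were whole multiples of 1 step in 100% of cases (within 0.01), so read counts were recovered from the deposited values. For a gene of 1 kb, 3 reads, the limit that a count of 0 allows, equal 0.129 to 0.154 FPKM, which covers counting error only.

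Genes averaging 1 FPKM or more were tested with limma 3.58.1 (trend, robust, 2-sided) in R 4.3.3 on log2(FPKM + 1), a scale that understates the change of low genes. The fit had treatment as its only term, and p-values were Benjamini-Hochberg adjusted over 18614 genes at a threshold of 0.05. FPKM is given as mean ± SD. edgeR 4.0.16 and DESeq2 1.42.0 were run on the recovered reads as alternatives. Other alternatives were 2 pseudocounts, 2 filters, 3 scalings, an untrended fit, a replicate block and leaving out each library.

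The 10 members and all 10 lists beside them were chosen with earlier results of these data known. Named genes were all members of the ER body and NAI1-related bHLH lists and, from other lists, up to 3 per direction with the smallest adjusted p and up to 2 not past the threshold with the highest FPKM. Neighbours past the threshold and the 5 most alike profiles were named too. Some genes fall outside this rule and were named after their values were seen. They are MYC2, listed at 0, CASP5, listed at 0 in the treated libraries, PHO1, GLIP5, MYB34 and TGG4. Of the gene IDs, 32548 matched RefSeq's TAIR10.1 annotation, 99.95% of them with the same start and end, and that reference gave the sequences. On simulated data for 18590 genes, limma recovered 10.4% of 1.5-fold, 80.6% of 2-fold and 97.0% of 4-fold changes, with 13 of 138 calls false. No libraries were repeats of each other (chi-square per degree of freedom 12.3 to 34.9 within groups).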

Additional observations from a re-analysis of the deposited data

How the results depend on the processing

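The median log2 change of the 10 genes stayed between -2.03 and -1.76 under every alternative run. BGLU21 moved by more than the spread between replicates, to -3.27 with a pseudocount of 0.1, -3.33 in edgeR and -3.33 in DESeq2. The count of other ER body genes that fell lay between 5 and 9. With the replicate number as a block 3256 genes passed and 7 other ER body genes fell, against 2696 and 6 without it. The deviations of same-numbered libraries from their group means correlated at 0.0861, 0.383 and 0.101. Treated 2 and treated 3 matched the control of their own number best, while treated 1 matched control 3 best (0.302). The labels name no pairs, so the numbers were not taken as pairs. The count of all genes past the threshold was 2970 in edgeR, 3624 in DESeq2 and 1393 to 3417 with 1 library left out, the lowest values being 1393 without control 1 and 1580 without control 2. With a minimum mean of 5 FPKM, 2 root markers fell, since fewer were tested. Genes near 0 changed sign. With upper-quartile scaling GGP1 was -0.050, CCOAOMT1 -0.033 and BGLU42 -0.055, and BGLU42 was -0.0037 with scaling without the 10 genes and -0.00058 in edgeR. With 1 library left out, the ranges were -0.049 to 0.065 for GGP1, -0.018 to 0.047 for BGLU42, -0.0029 to 0.11 for CCOAOMT1, -0.087 to 0.34 for AOS, -0.098 to 0.19 for TGG2 and -0.11 to 0.028 for SHR. The causes were not tested. Of 1062 recomputed changes of single genes 1028 kept direction and call, 34 changed sign, changed call or, for BGLU21, moved as given, and of 272 recomputed list counts 256 stayed within 1.5 times and 16 did not. Depth limits BGLU21, with 39 reads in treated 2.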
